A study of Mus musculus with 9 samples.

Results

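The 10 genes described here are the Notch receptors Notch1, Notch2 and Notch3, the ligands Dll1, Dll3 and Jag1, the DNA-binding effector Rbpj, the target repressors Hes1 and Hey1, and Neurog3, which the study used as an example gene. They were taken by name from a table of 38293 genes, and each symbol matched 1 Ensembl identifier. RNA-seq read counts were available for E14, a mouse embryonic stem cell line of strain 129/Ola, in 3 culture states with 3 libraries each and no engineered allele named in the labels. mESC-2i, labelled naive, were kept in N2B27 medium with LIF, the MEK inhibitor PD0325901 and the GSK3 inhibitor CHIR99021. The titles of the mESC-2i libraries also carry the tag LT, which those of the other states do not. mESC-ser, labelled primed, were kept on gelatin in foetal bovine serum with LIF. EpiLC were made from the naive cells on fibronectin in N2B27 with activin A, bFGF and KSR. All 9 libraries come from 1 cell line, so the libraries of a state are repeats of that line and not different animals.

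Notch signalling runs between neighbouring cells. A Delta or Jagged ligand on one cell binds a Notch receptor on the next, the receptor is cut, and its intracellular part moves to the nucleus, where it binds RBPJ and switches on repressor genes of the Hes and Hey families. In neural and pancreatic progenitors these repressors hold down proneural factors such as Neurog3, a basic helix-loop-helix factor best known as the switch for pancreatic endocrine cells. Without cleaved receptor, RBPJ sits on the same genes with corepressors.

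Upstream sequences are shown for Neurog3, because the study singled out its promoter, and for Rbpj and Notch3, the members with the highest level per length in mESC-ser and in EpiLC. They are RefSeq promoters of build GRCm38.p6, the assembly of mm10, printed 5′ to 3′ on the strand of the gene. Capitals mark the matches of the motifs searched on both strands. CACNAG (the N box bound by Hes repressors), CACGTG (the class B E box) and GTGGGAA (the RBPJ site) were planned. CAGCTG (an E box) and TGGGAA (the core of the RBPJ site, which every GTGGGAA also holds) were added with the sequences in view. All marked matches in the Neurog3 and Rbpj windows are of these added motifs, so they are a description only. The Neurog3 window is chr10:62132840-62133089 on the plus strand and lies in an intron of Fam241b, a gene of the opposite strand. The Notch3 window is chr17:32166891-32167140 on the minus strand. Of the Rbpj window only the 118 bases outside annotated exons are printed, chr5:53590096-53590213 on the plus strand. That window lies inside the annotated span of Rbpj (chr5:53466152-53657362), before an internal start and not before the 5′ end of the gene.

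Neurog3: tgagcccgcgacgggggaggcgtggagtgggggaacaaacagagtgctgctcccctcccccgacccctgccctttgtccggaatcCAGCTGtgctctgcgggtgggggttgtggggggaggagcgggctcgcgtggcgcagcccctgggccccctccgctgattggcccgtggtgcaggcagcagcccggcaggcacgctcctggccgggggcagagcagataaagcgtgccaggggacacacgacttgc
Notch3: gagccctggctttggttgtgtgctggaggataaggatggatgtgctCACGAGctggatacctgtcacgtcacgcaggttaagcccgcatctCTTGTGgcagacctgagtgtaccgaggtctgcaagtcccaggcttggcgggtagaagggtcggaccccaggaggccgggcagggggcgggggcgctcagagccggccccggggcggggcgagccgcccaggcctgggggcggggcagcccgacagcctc
Rbpj: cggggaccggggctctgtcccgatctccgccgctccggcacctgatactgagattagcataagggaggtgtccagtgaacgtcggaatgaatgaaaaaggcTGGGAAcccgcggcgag

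The Neurog3 window held 1 match of CAGCTG, from 165 to 160 bases before the start, and none of the other motifs. CAGCTG was present in 13.0% of the 32851 promoters of the table over the same 250 bases. Its GC content was 71.2% with 18 CpG dinucleotides, beside medians of 52.4% and 6 over all promoters. The Notch3 window held 2 matches of CACNAG, a motif present in 36.7% of promoters. The 250 bases of the first Rbpj promoter held TGGGAA from 149 to 144 bases before the start, in the printed stretch, and its reverse complement from 65 to 60, in annotated exon, and the second Rbpj promoter held 1 match from 205 to 200. Of all promoters 21.6% held the motif. GTGGGAA, present in 5.4% of promoters, and CACGTG, present in 6.0%, had no match in the window of any of the 8 members with an entry, which says only that these letters are not in these 250 bases. Hes1 and Hey1 are named only.

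Libraries held 7187576 to 16829549 counts. The summed level of 8 naive pluripotency markers was 957 to 1015 RPKM in mESC-2i, 574 to 591 in mESC-ser, with 42.8 to 47.9 in EpiLC, where RPKM is the read count per kilobase of exon, scaled to TMM-adjusted library size. That of 5 formative and primed markers was 17.4 to 19.4, 127 to 152 and 397 to 411 RPKM, so the labelled states stood apart in this order. In protein-coding genes the log2 fold change followed exonic length, with a Spearman correlation across genes (which are not independent replicates) of 0.28 between mESC-ser and mESC-2i, -0.30 between EpiLC and mESC-2i, and -0.498 between EpiLC and mESC-ser. Values with offsets for length and GC content are therefore given where they change a call. In whole cultures, fewer cells with a transcript and less of it in each cell cannot be told apart.

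Differences are log2 fold changes from edgeR's quasi-likelihood test, fitted over all genes of the 6 libraries compared, with the standard error (SE). A gene counts as called where its Benjamini-Hochberg adjusted p was under 0.05 and its log2 fold change beyond 0.5 in either direction. In mESC-ser against mESC-2i, 5 of the 10 members were called, 3 higher (Notch2, Rbpj, Neurog3) and 2 lower (Hes1, Hey1). Among all 15728 genes tested 56.2% were called, 25.9% higher and 30.3% lower. In EpiLC against mESC-2i all 9 members tested were called, 3 higher and 6 lower, where 69.8% of 15378 genes were called, 32.0% higher and 37.8% lower. In EpiLC against mESC-ser 8 of 10 were called, 2 higher and 6 lower, where 73.3% of 15345 genes were called, 35.5% higher and 37.8% lower. The ranges of the 3 and 3 libraries did not overlap for 6, 9 and 9 members in these comparisons, beside 70.6%, 81.8% and 85.7% of all genes tested. The median over the members tested was 0.126, -0.985 and -0.807, and over all genes tested -0.043, -0.109 and -0.068. Calls were thus common in every comparison, and the members' counts are to be read against these shares. Each pair of comparisons shares a group of libraries.

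**Figure D1:**
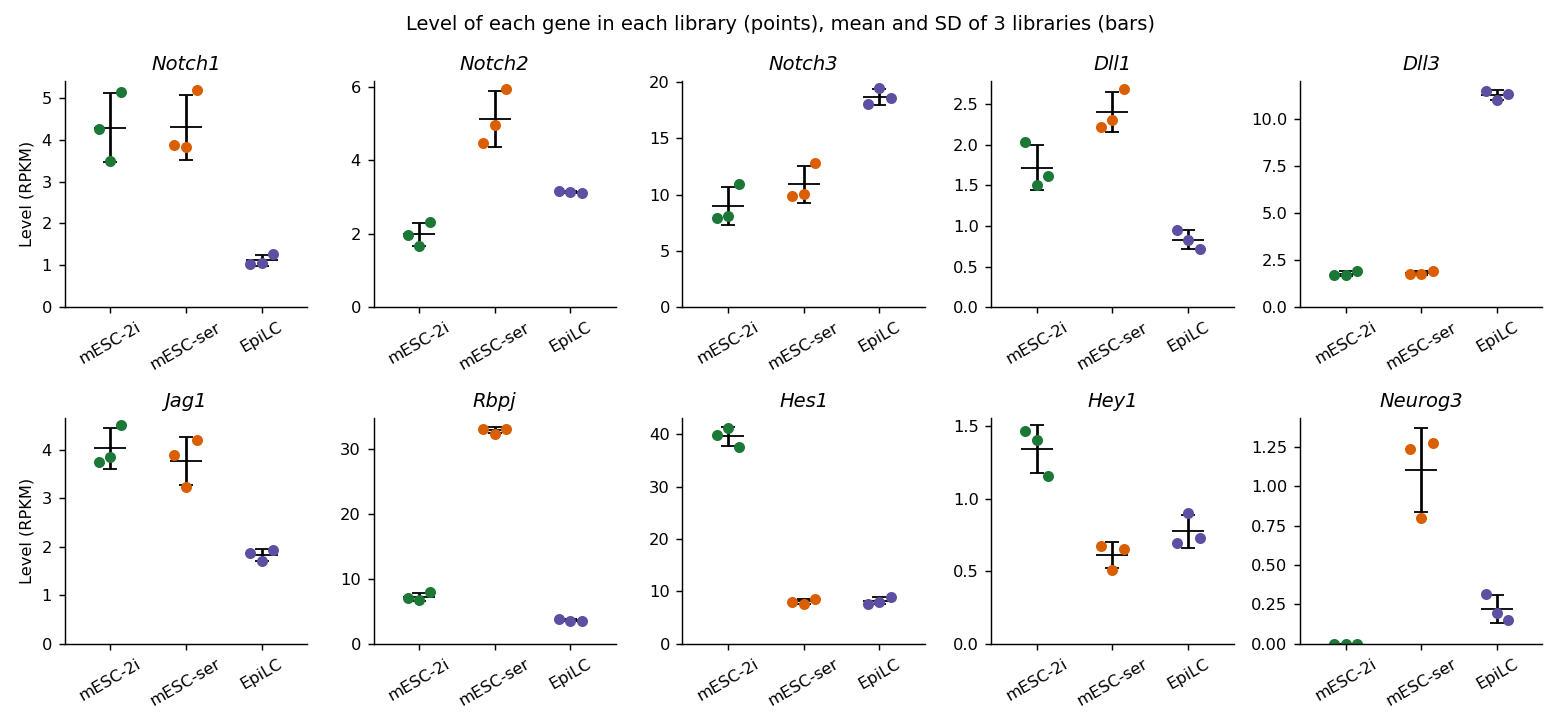
Level of each of the 10 genes in RPKM (vertical axes from 0, a scale of its own for each gene) in the 3 libraries of mESC-2i, mESC-ser and EpiLC. Points are libraries, the horizontal mark is the mean and the bar the SD of 3 libraries. Rbpj is high in mESC-ser alone, Hes1 in mESC-2i alone, Dll3 in EpiLC alone, and Neurog3 is at 0 in mESC-2i.

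Per length, Notch3 was the leading receptor in every state. It lies at chr17:32120820-32166852 on the minus strand (ENSMUSG00000038146; mm10, as all gene positions here). Its level was 7.94, 8.07 and 10.9 RPKM in replicates 1 to 3 of mESC-2i, 9.89, 10.0 and 12.8 in mESC-ser, with 18.03, 19.5 and 18.5 in EpiLC. All 3 EpiLC libraries were above the other 6, while replicate 3 of mESC-2i lay within the mESC-ser range. Notch3 rose in EpiLC by 1.05 (SE 0.13, edgeR adjusted p = 2.29e-05) against mESC-2i and by 0.85 (SE 0.09, edgeR adjusted p = 2.79e-07) against mESC-ser, the latter 1.355 with length and GC offsets and 0.51 with total-count scaling. Between mESC-ser and mESC-2i it was not called, at 0.25 with a 95% interval of -0.08 to 0.58.

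Notch1 (ENSMUSG00000026923; chr2:26457903-26516663, minus strand), the receptor best studied in lymphoid and neural progenitors, went the other way. Its level was 4.25, 3.50 and 5.13 RPKM in mESC-2i, 3.87, 3.82 and 5.20 in mESC-ser, with 1.04, 1.05 and 1.27 in EpiLC. The mESC ranges overlapped almost wholly, and EpiLC lay below both. The differences were -1.94 (SE 0.16, edgeR adjusted p = 1.15e-06) against mESC-2i and -1.87 (SE 0.13, edgeR adjusted p = 5.73e-10) against mESC-ser. With length and GC offsets they were -1.27 and -0.85, still called. Between the mESC states Notch1 stood at -0.03, with an interval of -0.38 to 0.33.

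Notch2 (ENSMUSG00000027878; chr3:98013527-98150361, plus strand) was highest in serum. The libraries held 1.97, 1.68 and 2.32 RPKM in mESC-2i, 4.47, 4.96 and 5.95 in mESC-ser, with 3.16, 3.15 and 3.11 in EpiLC, with no overlap between any of the groups. It rose by 1.34 (SE 0.15, edgeR adjusted p = 2.42e-05) in mESC-ser against mESC-2i. EpiLC lay 0.66 (SE 0.13) above mESC-2i and 0.64 (SE 0.10) below mESC-ser, the latter a log2 fold change of -0.64. Neither EpiLC call was stable. Scaling by total counts left 0.32 against mESC-2i, short of the threshold, where the offsets gave 1.40, and length and GC offsets turned the difference from mESC-ser to 0.25, which was not called. In replicate 3 of mESC-2i and of mESC-ser all 3 receptors were at the highest level of their group.

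As a share of the summed RPKM of these 3 receptors, Notch3 held 58.8% ± 2.47 of it in mESC-2i (mean and SD of 3 libraries), 53.7% ± 0.51 in mESC-ser, with 81.4% ± 0.73 in EpiLC. Notch1 held 28.1% ± 1.80, 21.1% ± 0.72 and 4.88% ± 0.58. Receptor RNA in EpiLC was thus mostly Notch3. The sum of the 3 receptors itself was 15.3 ± 2.74 RPKM, 20.3 ± 3.12 RPKM and 22.9 ± 0.725 RPKM.

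Of the ligands Dll1, Dll3 and Jag1, Dll3 moved furthest. Dll3 (ENSMUSG00000003436; chr7:28293553-28302238, minus strand) is the divergent Delta protein, known to act in the cell that makes it and to hold Notch signalling back there. Its level was 1.68, 1.73 and 1.93 RPKM in mESC-2i, 1.76, 1.75 and 1.94 in mESC-ser, with 11.5, 10.998 and 11.3 in EpiLC. The EpiLC libraries stood far above the other 6, whose ranges overlapped. It rose by 2.65 (SE 0.13, edgeR adjusted p = 3.04e-08) against mESC-2i and by 2.695 (SE 0.12, edgeR adjusted p = 1.61e-12) against mESC-ser, and was at 0.00 (interval -0.36 to 0.36) between the mESC states.

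Dll1 and Jag1, ligands that activate Notch on neighbouring cells, were both lower in EpiLC. Dll1 (ENSMUSG00000014773; chr17:15367354-15376872, minus strand) was at 2.03, 1.503 and 1.62 RPKM in mESC-2i, 2.22, 2.31 and 2.69 in mESC-ser, with 0.947, 0.828 and 0.714 in EpiLC, without overlap between groups. It fell by 1.04 (SE 0.20, edgeR adjusted p = 0.000731) in EpiLC against mESC-2i and by 1.47 (SE 0.17, edgeR adjusted p = 5.42e-07) against mESC-ser. Its difference between the mESC states was 0.48 (SE 0.16, edgeR adjusted p = 0.0235), short of the fold threshold. That call rested on the setting: the value was 0.73 and called with length and GC offsets, and 0.60 and called without replicate 1 of mESC-2i.

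Jag1 (ENSMUSG00000027276; chr2:137081456-137116644, minus strand) was at 3.75, 3.85 and 4.53 RPKM in mESC-2i, 3.89, 3.24 and 4.20 in mESC-ser, with 1.87, 1.71 and 1.94 in EpiLC. EpiLC lay below both mESC states, which overlapped. The differences were -1.14 (SE 0.13, edgeR adjusted p = 1.77e-05) against mESC-2i and -0.975 (SE 0.13, edgeR adjusted p = 1.96e-06) against mESC-ser. With length and GC offsets they were -0.60, still called, and -0.47, no longer called. Between the mESC states the value was -0.125, with an interval of -0.42 to 0.18.

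In the summed RPKM of the 3 ligands, Jag1 was the largest in mESC-2i (53.5% ± 3.02, SD, n = 3) and mESC-ser (47.1% ± 2.53), with Dll3 at 23.6% ± 0.95 and 22.8% ± 1.06. In EpiLC Dll3 held 80.9% ± 0.51, Jag1 13.2% ± 0.65 and Dll1 5.95% ± 0.76. Of these 3 ligands, the RNA of EpiLC was mostly that of the member known to hold signalling back, while Dll1 and Jag1 were at their lowest. The sum leaves out other ligands. Jag2 was at 1.77 RPKM on average in EpiLC, beside 1.84 of Jag1. It was not called in EpiLC against mESC-2i (-0.31, edgeR adjusted p = 0.0656) and was called lower than in mESC-ser (-1.30).

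**Figure D2:**
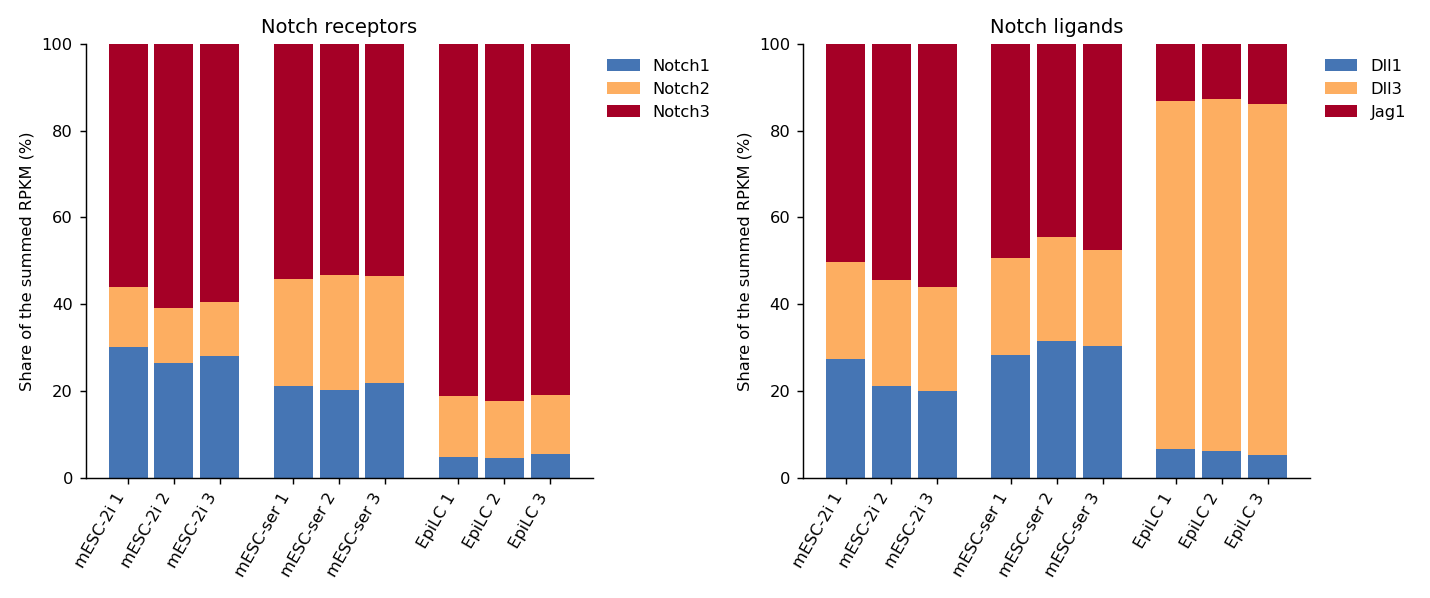
Share (%, axis from 0 to 100) of each gene in the summed RPKM of the 3 Notch receptors (left) and of the 3 ligands (right), 1 stacked bar for each library. Notch3 makes up 81.4% of the receptor sum and Dll3 80.9% of the ligand sum in EpiLC on average, and the 3 libraries of a state resemble each other.

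Rbpj, the factor through which every Notch receptor reaches DNA, had the widest swing of the 9 Notch pathway members, up to -3.10 on the log2 scale. With length and GC offsets its largest value was -1.70, and that of Dll3 was larger, at 2.50. It lies at chr5:53466152-53657362 on the plus strand (ENSMUSG00000039191). The libraries held 7.01, 6.67 and 7.93 RPKM in mESC-2i, 33.1, 32.4 and 33.1 in mESC-ser, with 3.81, 3.55 and 3.57 in EpiLC. The 3 groups did not overlap, and the libraries within each lay close together. Rbpj rose by 2.16 (SE 0.11, edgeR adjusted p = 9.32e-08) in mESC-ser against mESC-2i and stood at -3.10 (SE 0.08, edgeR adjusted p = 2.37e-14) between EpiLC and mESC-ser. With length and GC offsets these were 1.56 and -1.70, both called. EpiLC against mESC-2i gave -0.985 (SE 0.10, edgeR adjusted p = 5.69e-06), which fell to -0.15 with the offsets and was then not called. The annotated exons of Rbpj add up to 12750 bp over all its transcripts, so its RPKM is low for its counts, which were 4956 to 7339 in mESC-ser.

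Hes1 and Hey1, repressors that activated Notch switches on, were both highest in mESC-2i. Hes1 (ENSMUSG00000022528; chr16:30064384-30067796, plus strand) was at 39.9, 41.2 and 37.6 RPKM in mESC-2i, 7.98, 7.68 and 8.59 in mESC-ser, with 7.59, 8.04 and 8.94 in EpiLC. The naive libraries stood above all others, and mESC-ser and EpiLC overlapped. It fell by 2.31 (SE 0.11, edgeR adjusted p = 5.91e-08) in mESC-ser and by 2.27 (SE 0.11, edgeR adjusted p = 2.32e-08) in EpiLC, each against mESC-2i. Between EpiLC and mESC-ser it was at 0.09 (interval -0.15 to 0.32), a value that turned to -0.30 with length and GC offsets and to -0.25 with total-count scaling without being called.

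Hey1 (ENSMUSG00000040289; chr3:8663359-8667256, minus strand) was low throughout, with 17 to 55 counts per library. Its level was 1.47, 1.41 and 1.15 RPKM in mESC-2i, 0.675, 0.510 and 0.652 in mESC-ser, with 0.694, 0.903 and 0.731 in EpiLC. The naive libraries were again the highest, and the EpiLC libraries lay just above those of mESC-ser. It fell by 1.13 (SE 0.21, edgeR adjusted p = 0.000768) in mESC-ser and by 0.77 (SE 0.22, edgeR adjusted p = 0.00775) in EpiLC against mESC-2i. The EpiLC call was lost with DESeq2 (adjusted p = 0.0693) and with length and GC offsets (-0.51, edgeR adjusted p = 0.0507). EpiLC against mESC-ser was not called, at 0.41 with an interval of -0.09 to 0.91.

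In mESC-ser Rbpj was at its highest while Hes1 and Hey1 were below their level in mESC-2i. Of the other genes listed as Hes, Hey or Notch-induced, Hes5 and Nrarp were called lower in both states too, and the rest were mixed. Hes5, a target repressor of neural progenitors, had 45, 97 and 69 counts in mESC-2i, 0, 0 and 3 in mESC-ser, with 2, 1 and 1 in EpiLC. Against a floor of 3 counts per library it was at least 25.6-fold lower in mESC-ser and at least 16-fold lower in EpiLC. Nrarp, a feedback inhibitor of the Notch complex, had 133, 218 and 226 counts in mESC-2i, 41, 43 and 80 in mESC-ser, with 46, 47 and 46 in EpiLC. It fell by 2.27 (SE 0.18, edgeR adjusted p = 1.9e-06) and by 1.64 (SE 0.14, edgeR adjusted p = 1.87e-06) against mESC-2i. Hes1, Hey1, Hes5 and Nrarp were thus all called lower in both states that are compared with mESC-2i, although the lists they stand in were drawn up with earlier results of these data known.

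Hes6, which is known to oppose Hes1 and is not a classic Notch target, differed from them. Its counts were 153, 299 and 223 in mESC-2i, 142, 140 and 144 in mESC-ser, with 952, 1238 and 1010 in EpiLC. It rose in EpiLC by 2.65 (SE 0.13) against mESC-2i and 3.795 (SE 0.11) against mESC-ser, edgeR adjusted p = 3.58e-08 and 5.56e-14. Between mESC-ser and mESC-2i it was at -1.09 (SE 0.18), called lower. Hes6, like Dll3, was thus highest in EpiLC. Over the 9 genes of this list (other Hes, Hey and Notch-induced genes), 5, 5 and 4 passed the filter on low counts. Of these 0 were called higher and 3 lower in mESC-ser against mESC-2i, 2 and 3 for EpiLC over mESC-2i, and 3 and 1 for EpiLC over mESC-ser. Among all genes tested the shares called higher and lower were 25.9% and 30.3%, 32.0% and 37.8%, and 35.5% and 37.8%. Hes3 and Hey2 were not called in mESC-ser, at -0.27 (SE 0.20) and 0.615 (SE 0.40). In EpiLC Hes3 was lower than in mESC-2i by -2.95 (SE 0.33), and Hes2 was higher by 3.52 (SE 0.51), on 11, 15 and 12 counts beside 0, 2 and 2. These were named after their values were seen. Nrarp, at 0.68 in the last comparison, was not called with total-count scaling (0.34) or with length and GC offsets (0.30).

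**Figure D3:**
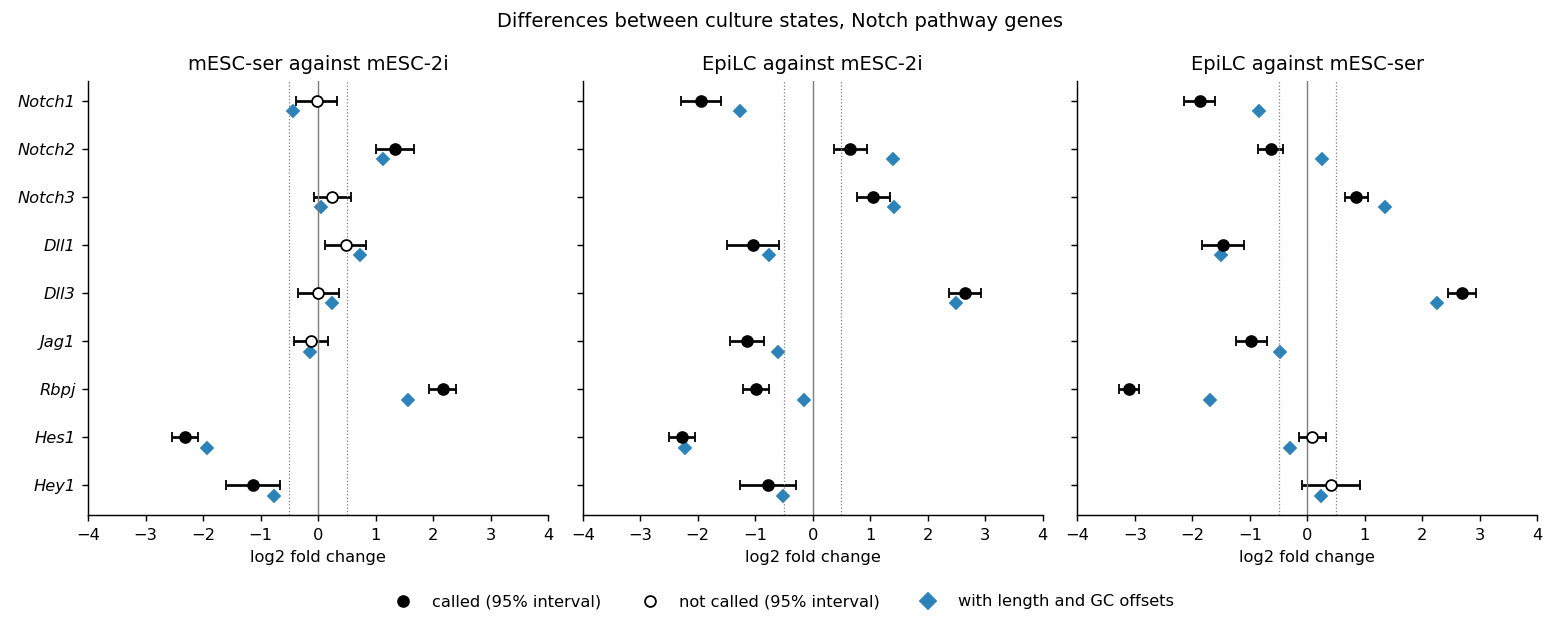
Log2 fold change of the 9 Notch pathway members in the 3 comparisons (horizontal axis, dotted lines at the fold threshold of 0.5). Circles are edgeR values with 95% intervals, filled where called, and diamonds are the values with length and GC offsets. Rbpj lies at 2.16, -0.985 and -3.10, and Notch2 changes sign with the offsets in EpiLC against mESC-ser. Neurog3 is left out because its mESC-2i libraries are at 0.

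Neurog3 (ENSMUSG00000044312; chr10:62133090-62134763, plus strand, a single exon block) had 0 counts in all 3 libraries of mESC-2i, 30, 16 and 37 in mESC-ser, with 4, 3 and 2 in EpiLC. As RPKM these were 0 in mESC-2i, 1.23, 0.795 and 1.27 in mESC-ser, with 0.318, 0.196 and 0.150 in EpiLC. Every mESC-ser library was above every other library. Against the floor of 3 counts per library, mESC-ser was at least 4.87-fold higher than mESC-2i. The study picked this gene as an example for the same pair of states on these libraries, so that difference is a description and not independent evidence. EpiLC was lower than mESC-ser by -2.26 on the log2 scale (SE 0.41, edgeR adjusted p = 6.9e-05). EpiLC against mESC-2i did not pass the filter on low counts, and with 2 to 4 counts no fold is given. Without the filter the gene was past the threshold there (edgeR adjusted p = 0.00486), on 9 reads in all.

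A stretch of 273 bp, 16.3% of the Neurog3 exon, is also exon of Fam241b on the opposite strand, and the library kit does not keep strand. Fam241b had 47, 91 and 49 counts in mESC-2i, 45, 38 and 56 in mESC-ser, with 52, 55 and 37 in EpiLC, so it overlapped between all groups while Neurog3 did not. Reads of the shared stretch cannot be told apart. Exons of Dll1 share 867 bp (20.6%) with A930024N18Rik, which had 0 or 1 count in each library, and those of Notch1 share 1068 bp with 0610009E02Rik, which had 1 to 5. Gm13568 (414 bp of Notch1) had 0 to 4 counts and Gm17276 (488 bp of Notch3) 0 to 3. Gm42820 shares 541 bp with Notch2 on the same strand and was not used here.

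At its highest, Neurog3 remained the lowest or next to lowest of the 10 genes. In mESC-ser its 1.10 ± 0.265 RPKM (SD, n = 3) lay between Dll3 (1.82 ± 0.104) and Hey1 (0.612 ± 0.0894) without overlap. In mESC-2i the order per length was Hes1, Notch3, Rbpj, Notch1, Jag1, Notch2, Dll3, Dll1, Hey1 and Neurog3, in which Notch1 and Jag1 overlapped, as did Notch2 with Dll3 and Dll3 with Dll1. In mESC-ser it was Rbpj, Notch3, Hes1, Notch2, Notch1, Jag1, Dll1, Dll3, Neurog3 and Hey1, with overlap of Notch2 with Notch1 and of Notch1 with Jag1. EpiLC gave Notch3, Dll3, Hes1, Rbpj, Notch2, Jag1, Notch1, Dll1, Hey1 and Neurog3, where Dll1 and Hey1 overlapped. The leading gene thus differed in each state: Hes1 at 39.6 RPKM, Rbpj at 32.9 and Notch3 at 18.7.

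Other proneural factors differed among themselves. Neurog2, a close relative of Neurog3 that acts in neurons, had 11, 18 and 16 counts in mESC-2i, 1 in each library of mESC-ser and 0 in EpiLC. It was highest in the state where Neurog3 was at 0. Atoh1, the proneural factor of hair cells and secretory gut cells, had 2, 1 and 2 counts in mESC-2i, 6, 5 and 11 in mESC-ser, with 1, 0 and 2 in EpiLC. It was highest in mESC-ser as Neurog3 was but on few reads. Neurod1, which Neurog3 switches on in endocrine progenitors, also followed the order of Neurog3. Its counts were 11, 20 and 19 in mESC-2i, 247, 174 and 259 in mESC-ser, with 35, 37 and 40 in EpiLC, a rise of 3.31 (SE 0.18, edgeR adjusted p = 1.77e-07) in mESC-ser against mESC-2i and -1.69 (SE 0.15, edgeR adjusted p = 1.99e-08) between EpiLC and mESC-ser. Neurog2 and Atoh1 were named after their values were seen.

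Of the 13 proneural and endocrine genes listed, 9, 6 and 4 passed the filter. Those called were 2 higher and 5 lower in mESC-ser against mESC-2i, 1 and 4 for EpiLC over mESC-2i, and 1 and 2 for EpiLC over mESC-ser. Among all genes tested 25.9% were called higher and 30.3% lower in the first comparison. The shares were 32.0% and 37.8% in the second, and 35.5% and 37.8% in the third. Insm1, a factor downstream of Neurog3 in the pancreas, was not called in mESC-ser against mESC-2i (-0.02, SE 0.16), unlike Neurod1. In EpiLC Insm1 was lower by -0.83 (SE 0.22) against mESC-2i and by -0.76 (SE 0.20) against mESC-ser. Pax4 had 0 counts in all 9 libraries. Chga, a protein of secretory granules, was called at 0.61 (SE 0.17) in EpiLC against mESC-ser but not without replicate 2 of EpiLC (0.35). That library also held the most counts of the islet hormone Ins2, named after its values were seen (680, against 109 to 347 in the other 8 libraries). Ins2 was present in every library, including the mESC-2i libraries with no Neurog3 (143 to 347 counts).

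Markers of other cell types also differed between the states. The sum of 5 neural markers was 69.8 to 85.3 RPKM in mESC-2i, 56.3 to 58.5 in mESC-ser, with 18.8 to 19.5 in EpiLC, and among them Pax6 rose in mESC-ser by 3.83 (SE 0.18) and Sox1 fell by 1.87 (SE 0.17). Some sums were carried by 1 gene. In mESC-2i Tubb3 had 71.4 RPKM of the neural sum, T 37.3 of the mesoderm sum and Cdx2 6.91 of the trophectoderm sum on average, while Gata3 and Hand1 of the latter list were called higher in mESC-ser. The 4 mesoderm markers summed to 38.6 to 46.8, 3.71 to 4.87 and 3.61 to 4.26 RPKM, 6 primitive endoderm markers to 3.98 to 4.25, 4.95 to 5.10 and 1.40 to 2.11, and 4 trophectoderm markers to 6.90 to 7.94, 4.19 to 5.08 and 0.063 to 0.248. The 6 endocrine markers, which include Ins1 and Ins2, summed to 17.0 to 48.7, 25.9 to 32.9 and 22.6 to 89.8 RPKM. Elf5 and Mesp1 were at 0 to 3 counts in every library. Between mESC-ser and mESC-2i 25.9% of all genes tested were called higher and 30.3% lower. The marker calls there were 1 higher and 1 lower of 5 neural, 0 and 2 of 2 mesoderm, 3 and 2 of 5 primitive endoderm, 2 and 1 of 3 trophectoderm and 1 and 0 of 5 endocrine markers tested. The part of such cells in the values of Neurog3 and the Notch genes was not tested.

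By Pearson correlation of log2 CPM over the 9 libraries, the protein-coding genes most like Neurog3 were Ubfd1 (0.993), Frmd5 (0.9925), Ptpn14 (0.9921), Spn (0.991) and Folr1 (0.9903), out of 13584 compared. All 5 had their highest mean in mESC-ser and their lowest in mESC-2i. Spn, which encodes the leukocyte surface protein CD43, had 0.706 CPM on average in mESC-2i, 20.5 in mESC-ser, with 3.73 in EpiLC. Folr1, a folate receptor, had 11.2, 64.5 and 25.3 CPM. As many as 271 genes had a correlation above 0.95, and the 9 points are 3 groups of 3, so the likeness is that of the group means.

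The rest of the pathway was followed in 53 further genes in 5 lists. In mESC-ser against mESC-2i, 47 were tested and 25 called (53.2%, beside 56.2% of all genes), 12 higher and 13 lower. In EpiLC against mESC-2i, 46 were tested and 37 called (80.4%, beside 69.8%), 9 higher and 28 lower. In EpiLC against mESC-ser, 44 were tested and 30 called (68.2%, beside 73.3%), 8 higher and 22 lower. With length and GC offsets the splits were 7 higher and 11 lower, 11 and 19, and 11 and 18. Over all genes called, higher calls were 46.1%, 45.9% and 48.4% in the 3 comparisons, and 50.5%, 55.8% and 56.0% with the offsets.

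The nuclear cofactors act with RBPJ at its target genes. Of 11 tested in each comparison, 5 were called higher and 1 lower in mESC-ser against mESC-2i, 0 and 8 for EpiLC over mESC-2i, and 0 and 9 for EpiLC over mESC-ser. Among all genes 25.9% were called higher and 30.3% lower in the first comparison, 32.0% and 37.8% in the second, and 35.5% and 37.8% in the third. With length and GC offsets the cofactor counts were 3 and 1, 1 and 4, and 1 and 7. Spen, the corepressor scaffold that binds RBPJ, was at 89.4 CPM on average in mESC-2i, 341 in mESC-ser, with 45.4 in EpiLC. Ep300, a histone acetyltransferase recruited by the active Notch complex, was at 88.9, 336 and 48.2 CPM. Both had the order of Rbpj, highest in mESC-ser and lowest in EpiLC. Their rises in mESC-ser were 1.90 (SE 0.22) and 1.89 (SE 0.18), edgeR adjusted p = 3.39e-05 and 9.42e-06, and against mESC-ser the EpiLC values were -2.84 (SE 0.13) and -2.73 (SE 0.11). With the offsets these EpiLC values were -1.84 and -1.54, and those against mESC-2i were not called (-0.31 and 0.04). Maml2, a Mastermind coactivator, was lower by -0.91 (SE 0.19) in mESC-ser and -2.86 (SE 0.30) in EpiLC against mESC-2i, and Kat2b, an acetyltransferase, by -1.71 (SE 0.11) in EpiLC.

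Genes that process receptor and ligand were called 3 higher and 7 lower of 19 tested in mESC-ser against mESC-2i, 3 and 13 of 18 for EpiLC over mESC-2i, and 2 and 7 of 17 for EpiLC over mESC-ser. With length and GC offsets these counts were 1 and 6, 3 and 10, and 3 and 7. The shares of all genes given for the cofactors apply here too. Lfng, a Fringe glycosyltransferase that tunes which ligand a receptor answers to, rose in mESC-ser by 1.47 (SE 0.21). Mfng, another Fringe, rose in EpiLC by 2.15 (SE 0.17) against mESC-2i and 2.53 (SE 0.17) against mESC-ser. Of the gamma-secretase that makes the last cut, Psen2 fell by 2.31 (SE 0.16) in mESC-ser and by 2.40 (SE 0.15) in EpiLC, each against mESC-2i, while Psenen rose by 1.33 (SE 0.14) in EpiLC against mESC-2i and 2.27 (SE 0.10) against mESC-ser. Adam10, the protease of the first activating cut, fell by 2.54 (SE 0.11) in EpiLC against mESC-2i. Neurl1a, a ligand ubiquitin ligase, fell by 1.63 (SE 0.11) in mESC-ser. Mib1, a ligase that ligands need to signal, was at 0.86 (SE 0.14) there but not called with the offsets (0.33), and was lower in EpiLC than in mESC-ser by -2.26 (SE 0.09), as was Furin, the convertase of the receptor, by -1.53 (SE 0.13).

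Among negative regulators 2 of 9 were called higher and 2 lower in mESC-ser against mESC-2i, 3 and 3 for EpiLC over mESC-2i, and 2 and 3 for EpiLC over mESC-ser. With length and GC offsets these counts were 1 and 1, 4 and 1, and 4 and 1, so the balance in EpiLC depended on the offsets. The shares of all genes given for the cofactors apply here too. Dtx1, a Deltex ubiquitin ligase, was at 37.0 CPM on average in mESC-2i, 16.2 in mESC-ser, with 66.4 in EpiLC, with called differences of -1.21 (SE 0.12), 0.84 (SE 0.11) and 2.10 (SE 0.10). Dtx3 was highest in EpiLC too, at 107 CPM beside 55.2 in mESC-2i and 35.7 in mESC-ser. Its fall in mESC-ser (-0.66, SE 0.19) was not called without replicate 3 of mESC-2i (-0.37) or with the offsets (-0.38). Nedd4 and Itch, ubiquitin ligases of the receptor, ran opposite to Dtx1, at 1.06 (SE 0.10) and 0.62 (SE 0.11) in mESC-ser against mESC-2i and -1.45 (SE 0.08) and -1.93 (SE 0.09) in EpiLC against mESC-ser. With the offsets Itch was not called in the former (0.09) and Nedd4 not in the latter (-0.24). Itch in EpiLC against mESC-2i was at -1.36 (SE 0.11), and Fbxw7, which marks cleaved Notch for decay, was at -0.85 (SE 0.11) and not called with the offsets (-0.25).

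Of the 5 other receptors and ligands 3 were tested, and 2 were called higher and 0 lower in mESC-ser against mESC-2i, 1 and 1 for EpiLC over mESC-2i, and 1 and 2 for EpiLC over mESC-ser. The shares of all genes given for the cofactors apply here too. Jag2, a ligand, had 13.6, 14.5 and 17.4 CPM in mESC-2i, 29.9, 27.3 and 37.8 in mESC-ser, with 12.4, 11.5 and 13.1 in EpiLC. It rose by 1.03 (SE 0.15) in mESC-ser and was lower by -1.30 (SE 0.13) in EpiLC against mESC-ser. Notch4, the receptor of endothelium, was at 16.2, 18.5 and 1.74 CPM on average and fell in EpiLC by 3.24 (SE 0.33) against mESC-2i and 3.36 (SE 0.20) against mESC-ser, as Notch1 did. Dlk1, a Delta-like protein without the activating domain, was at 0.779, 5.13 and 7.12 CPM and rose against mESC-2i by 2.61 (SE 0.32) in mESC-ser and 3.10 (SE 0.29) in EpiLC. Its difference between EpiLC and mESC-ser (0.54, SE 0.17) was not called without replicate 1 of mESC-ser (0.40).

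**Figure D4:**
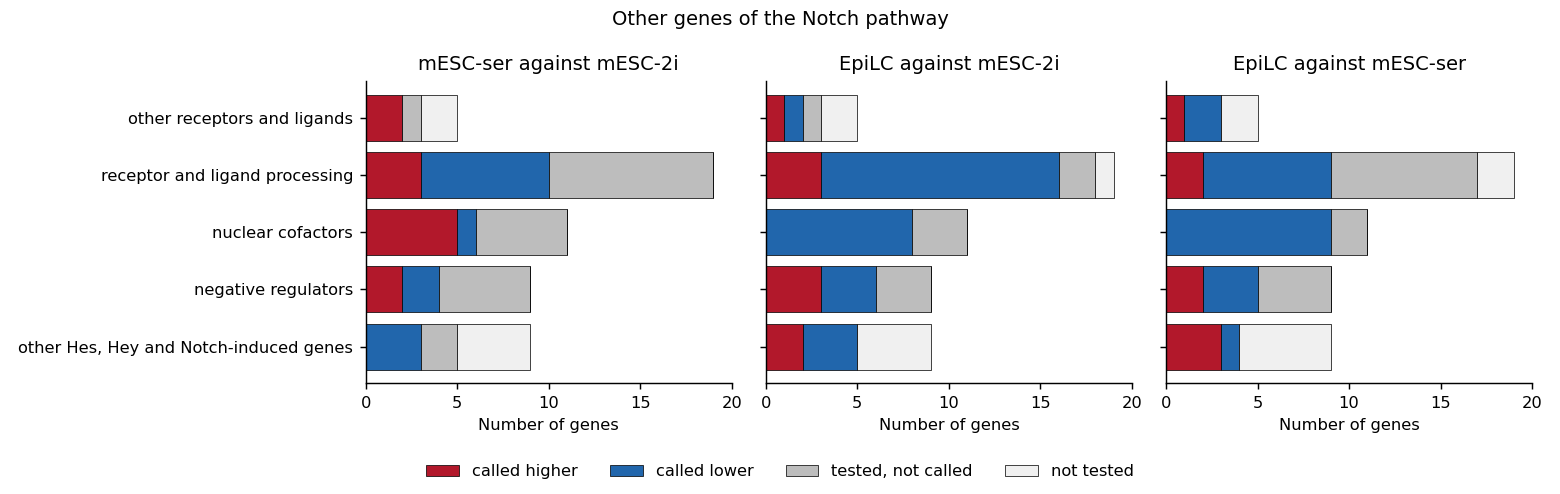
Number of genes (horizontal axis) of 5 lists of other Notch pathway genes in each comparison, split into called higher (red), called lower (blue), tested and not called (grey) and not tested for low counts (pale). The nuclear cofactors hold 5 higher calls in mESC-ser against mESC-2i and 0 in either EpiLC comparison. With length and GC offsets, which the bars do not show, they hold 3 in the former and 1 in each EpiLC comparison.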

How the data were processed

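The authors deposited raw read counts for each Ensembl gene, not normalized. Per the labels and the study's methods, poly-A RNA was made into TruSeq v2 libraries, which do not keep strand, and sequenced as single-end reads. The submitters' processing notes name FastQC 0.11.0, Trim Galore 0.6.6, HISAT2 2.2.1, Subread 2.0.1 and mm10. The annotation release and the strand setting of the counting are not given in the sources used here. Each column name matched 1 sample, with 0 columns unmatched.

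Symbols, positions and exonic lengths came from GENCODE M21 (GRCm38), which matched 36429 of 38293 identifiers (95.1%). The 10 members and all lists (110 genes) were chosen with earlier results of these data known. Each pair of states was fitted on its own 6 libraries across all genes with edgeR 4.0.16 in R 4.3.3 (filterByExpr, TMM, quasi-likelihood F-test, Benjamini-Hochberg adjustment). SEs and 95% intervals come from the F statistic. RPKM used TMM over all 9 libraries and the union of exons. Totals of 7187576 to 16829549 counts set the precision, and a group with at most 3 counts in every library was at the floor, which covers counting error only since reads carry no molecular identifiers. Named list genes are at most the 2 largest rises and 2 largest falls of each list among called genes that averaged 50 counts or more in the higher group and did not overlap, for the Notch and the proneural lists. Of the marker lists sums are given. Pax6, Sox1, T, Cdx2, Gata3 and Hand1 met the same rule in mESC-ser against mESC-2i, as did other markers that are not named. Tubb3 was named for its part of a sum, and Elf5 and Mesp1 for their low counts. For likeness to Neurog3 a prior count of 2 was used.

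The labels say biological replicate but not what a number marks, so p-values measure the spread between these libraries. Chi-square values per degree of freedom between replicates were 1.609 to 28.286, so none agreed within sampling noise. Same-numbered libraries of mESC-ser and mESC-2i correlated at 0.129, 0.182 and 0.345 in their deviations from the group means across genes. Libraries of different number correlated at -0.278 to 0.146. Deviations from a mean of 3 libraries are tied together, so these values do not settle whether the numbers pair libraries. Same-numbered libraries correlated at 0.02 to 0.112 in EpiLC against mESC-2i and at 0.016 to 0.034 against mESC-ser. The main fits are unpaired, also for mESC-ser against mESC-2i. Alternatives were scaling by RLE or by total counts, DESeq2 1.42.0, keeping every gene, keeping genes with 10 or more counts throughout, all 9 libraries in one fit, a replicate block, offsets from natural splines (5 degrees of freedom each) in length and GC content, other thresholds, and leaving out each replicate. The steps were also run on simulated counts, drawn with the same dispersion for all genes and with few genes changed. These data differ from that setting, so the run is not used as support here. The study's histone data are not analysed here. Values of 1 gene of the proneural list are not reported here.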

Additional observations from a re-analysis of the deposited data

How the results depend on the processing

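Over the members' differences 449 alternative values kept direction and side of the thresholds, 14 lost the call, 10 gained it and 18 changed sign. At an absolute log2 fold change over 1, mESC-ser against mESC-2i kept 4935 called genes and 16 called among the other Notch genes, with 22 of the latter for EpiLC over mESC-2i and 5 members for EpiLC over mESC-ser. In mESC-ser against mESC-2i, Notch1 changed sign with RLE (0.004), no filter (0.010), at least 10 counts (0.031), DESeq2 (0.012) and all 9 libraries in one fit (0.002), and ranged from -0.163 to 0.138 without one replicate. Dll3 was at -0.043 with total counts and -0.032 to 0.074 without one replicate, and Jag1 at -0.185 to 0.004 without one. None of these was called. In EpiLC against mESC-ser, Hes1 was at -0.253 with total counts and -0.297 with length and GC offsets, and Notch2 at 0.252 with the offsets. The cause was not tested. Without one replicate, 8581 to 9391, 10608 to 11059 and 11183 to 11446 genes were called in the 3 comparisons, with 5 to 6, 9 and 8 members and 25 to 27, 36 to 39 and 30 to 34 other Notch genes. Dll1 in mESC-ser against mESC-2i was called with RLE (0.506), no filter (0.510), at least 10 counts (0.533), DESeq2 (0.511), all 9 libraries (0.506), and without replicate 1 (0.558) or 2 (0.536) of mESC-ser.

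With the replicate block 8953, 10759 and 11207 genes were called, and no member changed its call. With the block and the offsets together Hes1 was at -0.289 and Notch2 at 0.253 in EpiLC against mESC-ser, and no member's call differed from that with the offsets alone.

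Total-count scaling moved the median of all tested genes to -0.448 in EpiLC against mESC-2i and -0.408 against mESC-ser, from -0.109 and -0.068, and the share of higher calls to 33.7% and 37.4%, from 45.9% and 48.4%. The offsets moved the medians to 0.18 and 0.148 and the shares to 55.8% and 56.0% in these 2 comparisons. Of 30 levels, 11 moved by more than 1 SD with total-count scaling, and 0 of 90 without one replicate. Depth limits Neurog3 in EpiLC, Hes5 outside mESC-2i and Hey1.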

Other observations

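Transcripts of pancreatic islet hormones were read in all 9 libraries, a set of genes chosen after its values were seen. Ins2 had 109 to 680 counts, Ins1 28 to 225, Iapp 29 to 151, Gcg 12 to 123, Sst 2 to 16 and Ppy 2 to 34. For 100 counts of Ins2 a library held 19.58 to 41.43 of Ins1, 20.28 to 28.24 of Iapp and 11.01 to 18.18 of Gcg. The acinar genes Prss2, Cpa1 and Cel had 0 or 1 count in every library, and Pdx1, a factor of beta cells, 1 to 4. Neurog3, which comes before these hormones in the pancreas, was at 0 to 17.62 counts for 100 of Ins2. Where these transcripts came from was not tested.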
